A study of Mus musculus with 4 samples.

Results

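The genes described here encode enzymes and helper proteins that process and crosslink collagen. The list names 10 genes, which are the lysyl oxidases Lox, Loxl1, Loxl2 and Loxl3, the lysyl hydroxylases Plod1 and Plod2, the prolyl hydroxylase subunits P4ha1 and P4ha2, and the procollagen enhancers Pcolce and Pcolce2. A probe set, a group of short probes that together report 1 transcript, was used when the array's annotation paired it with 1 of these genes alone. This gave 16 probe sets for 9 of the 10 genes, out of 18194 genes with such a probe set on the array. Loxl2 has no value here, because both of its 2 probe sets are shared with the predicted gene Gm21451.

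Expression was measured on Affymetrix Mouse Genome 430 2.0 arrays in mouse embryonic fibroblasts, a mixed culture of connective tissue cells from embryos. There were 4 groups with 1 array each, namely untreated FAK -/- (knockout) cells, untreated FAK +/+ (wild-type) cells, endothelin-1-treated FAK -/- cells and endothelin-1-treated FAK +/+ cells. FAK is focal adhesion kinase, a tyrosine kinase that signals where integrins hold the cell to the matrix, and endothelin-1 (ET-1) is a peptide that acts through G protein-coupled receptors. All cells were at passage 5, had been grown with 10% serum to 50% confluence, went without serum for 24 h, and then stayed for 24 h with or without ET-1. The labels do not say how many embryos or lines of each genotype were used, so differences between lines and loss of FAK cannot be told apart.

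Collagen chains are modified before they fold. Prolyl 4-hydroxylase, built from an alpha subunit (P4ha1 or P4ha2) and protein disulfide isomerase, hydroxylates prolines and so stabilises the triple helix, while lysyl hydroxylases modify lysines that later carry sugars and crosslinks. After secretion, procollagen enhancers speed the removal of the C-propeptide by the protease BMP-1, and lysyl oxidases oxidise lysines of collagen and elastin so that fibres become covalently crosslinked. Fibroblasts are the main source of these proteins in connective tissue.

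Promoters of 5 of the 10 genes came from the RefSeq promoter table (GRCm38.p6, from 250 bases before to 50 bases after each gene's start). These were Pcolce, Pcolce2, P4ha1, P4ha2 and Plod1. Promoters of the other listed genes, Lox among them, were not taken, so the motif counts do not cover them. The promoters of both procollagen enhancers are shown because these genes had the largest differences between genotypes, and those of P4ha1 and P4ha2 because these encode alternative subunits of 1 enzyme. Each line gives 300 bases of the gene's own strand, 5′ to 3′, at chr5:137611355-137611654 (minus strand) for Pcolce, chr9:95637378-95637677 (plus) for Pcolce2, chr10:59323046-59323345 (plus) for P4ha1 and chr11:54100674-54100973 (plus) for P4ha2. Capitals mark matches on either strand to the GC box GGGCGG, the E-box CAGCTG and the hypoxia response core ACGTG.
Pcolce: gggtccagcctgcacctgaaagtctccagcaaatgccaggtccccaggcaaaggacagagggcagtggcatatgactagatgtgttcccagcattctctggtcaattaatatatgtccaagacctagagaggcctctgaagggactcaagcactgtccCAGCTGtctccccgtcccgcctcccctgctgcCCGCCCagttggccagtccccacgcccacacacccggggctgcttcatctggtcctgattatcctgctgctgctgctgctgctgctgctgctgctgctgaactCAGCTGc
Pcolce2: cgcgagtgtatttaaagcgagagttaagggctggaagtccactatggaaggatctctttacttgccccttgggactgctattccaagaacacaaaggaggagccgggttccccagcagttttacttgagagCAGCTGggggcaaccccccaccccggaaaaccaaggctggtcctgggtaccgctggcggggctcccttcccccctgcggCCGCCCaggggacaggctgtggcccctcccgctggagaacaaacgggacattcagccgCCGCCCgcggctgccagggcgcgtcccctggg
P4ha1: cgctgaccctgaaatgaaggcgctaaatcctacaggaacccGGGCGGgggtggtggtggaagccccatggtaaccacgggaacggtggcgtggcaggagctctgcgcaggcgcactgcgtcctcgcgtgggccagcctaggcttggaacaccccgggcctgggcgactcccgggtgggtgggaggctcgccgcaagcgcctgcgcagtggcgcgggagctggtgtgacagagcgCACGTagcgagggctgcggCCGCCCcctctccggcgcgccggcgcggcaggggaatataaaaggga
P4ha2: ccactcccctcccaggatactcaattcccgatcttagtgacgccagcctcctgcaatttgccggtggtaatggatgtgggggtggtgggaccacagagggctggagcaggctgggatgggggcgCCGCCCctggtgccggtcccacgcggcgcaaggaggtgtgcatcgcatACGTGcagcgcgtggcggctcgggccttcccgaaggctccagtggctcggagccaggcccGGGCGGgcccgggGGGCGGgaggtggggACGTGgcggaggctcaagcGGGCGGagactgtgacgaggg

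GGGCGG was found in all 5 of the member promoters taken and in 35.7% of the 32851 promoters in the table. The member promoters are rich in G and C, from 59.3% in Pcolce to 70.3% in P4ha1 and P4ha2, against a median of 52.7% over the table. CAGCTG occurred in the promoters of Pcolce (2 matches) and Pcolce2 (1 match), in none of the other 3, and in 16.3% of all promoters. ACGTG occurred in those of P4ha1 (1 match) and P4ha2 (2 matches), in none of the other 3, and in 19.6% of all. The AP-1 letters TGANTCA and the TEAD letters GGAATG were found in 0 of the 5, against 7.81% and 14.7% of all promoters. The motifs were chosen with these sequences in view, and a match describes letters only.

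All values are log2 expression values as deposited, so a difference of 1 is 2-fold. Values ran from 5.00 to 15.24 over all arrays, and a gene was tested when its highest value was above the median of all values, log2 8.90. Each gene was represented by its brightest probe set, which left 12290 genes, all 9 members among them. Of the 16 member probe sets, 15 passed and 1 of Plod1 did not. With 1 array per group, a difference between 2 arrays has no replicate check. The only test was limma's additive model of genotype and treatment over all 4 arrays, which leaves 1 residual degree of freedom, the interaction of both factors, so its standard errors (SE) do not measure a spread between cultures. FAK itself was not analysed here.

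The ET-1-treated wild-type array stood apart. For Gapdh, the log2 value of the 3′ control probe set minus that of the 5′ one was 3.79 in that array and 0.85 to 0.90 in the other 3 arrays. For Actb it was 1.81 in that array and 0.66 to 1.30 in the others. The untreated genotype difference and the ET-1 difference in the knockout do not use that array, while the limma values do. Marker genes also moved with genotype. Of 9 fibroblast markers tested, 7 fell in the knockout by limma (adjusted p under 0.05; all genes: 7.05%) and 1 rose (all genes: 6.6%), and of 9 mesothelial and epithelial markers 6 rose and 1 fell. Among the latter, Dsp, which rose, passed the filter through its knockout values alone, and Krt19, which fell, through its wild-type values alone. The summed log2 level of the fibroblast list was 16.56 untreated and 16.41 after ET-1 in the knockout, against 17.07 and 17.25 in wild type. That of the mesothelial and epithelial list was 16.11 and 15.93 in the knockout, against 14.36 and 13.74 in wild type. No marker is listed at 0, and the epithelial cadherin Cdh1 was below the filter. The fibroblast markers tested differed by -4.07 (Thy1) to 1.83 (Dcn) in the untreated knockout on the log2 scale. Prrx1 stood at -3.52 and Col3a1 at 0.18. Averaged over the probe sets of each gene, Prrx1 stood at -2.04, Dcn at 1.36 and Col3a1 at 0.32. The part of these markers in the results below was not tested, and in RNA from whole cultures fewer cells of a type and less RNA per cell cannot be told apart.

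Loss of FAK went with lower values of both procollagen enhancers and of 2 lysyl oxidases. Averaged over treatments, Pcolce2, Pcolce, Lox and Loxl1 fell in the knockout by limma (Benjamini-Hochberg over 12290 genes), and 0 members rose. These are 4 of 9 members (all genes: 7.05% fell and 6.6% rose), of which Pcolce2 passed the filter through its wild-type values alone. Over probe sets, 7 of the 15 member probe sets tested fell, and 0 rose (all 20939 probe sets tested: 4.27% and 4.17%), and they belonged to the same 4 genes. Of the 7, that of Pcolce2 and 1437903_at of Lox passed the filter through their wild-type values alone. The lysyl hydroxylase Plod2 was the only member with higher values in both knockout arrays than in both wild-type arrays, and it did not pass the test. How many of all genes had that order was not counted.

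The median member differed by -0.75 (log2) in untreated cells and by -0.90 after ET-1, and the median of all genes tested by 0.02 and -0.03. In untreated cells 4 members were at least 2-fold lower in the knockout (4.59% of all genes) and 0 were at least 2-fold higher (4.78%). After ET-1, 4 members were at least 2-fold lower (6.53%) and 1 was at least 2-fold higher (5.61%). Both genotype differences share no array, and 7 of the 9 members had the same sign in both. The share of all genes with the same sign was not counted, so this number describes the members only. Both knockout arrays were below both wild-type arrays for 6 members (29.3% of all genes), which adds P4ha2 and Plod1 to the 4 genes that fell.

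**Figure D1:**
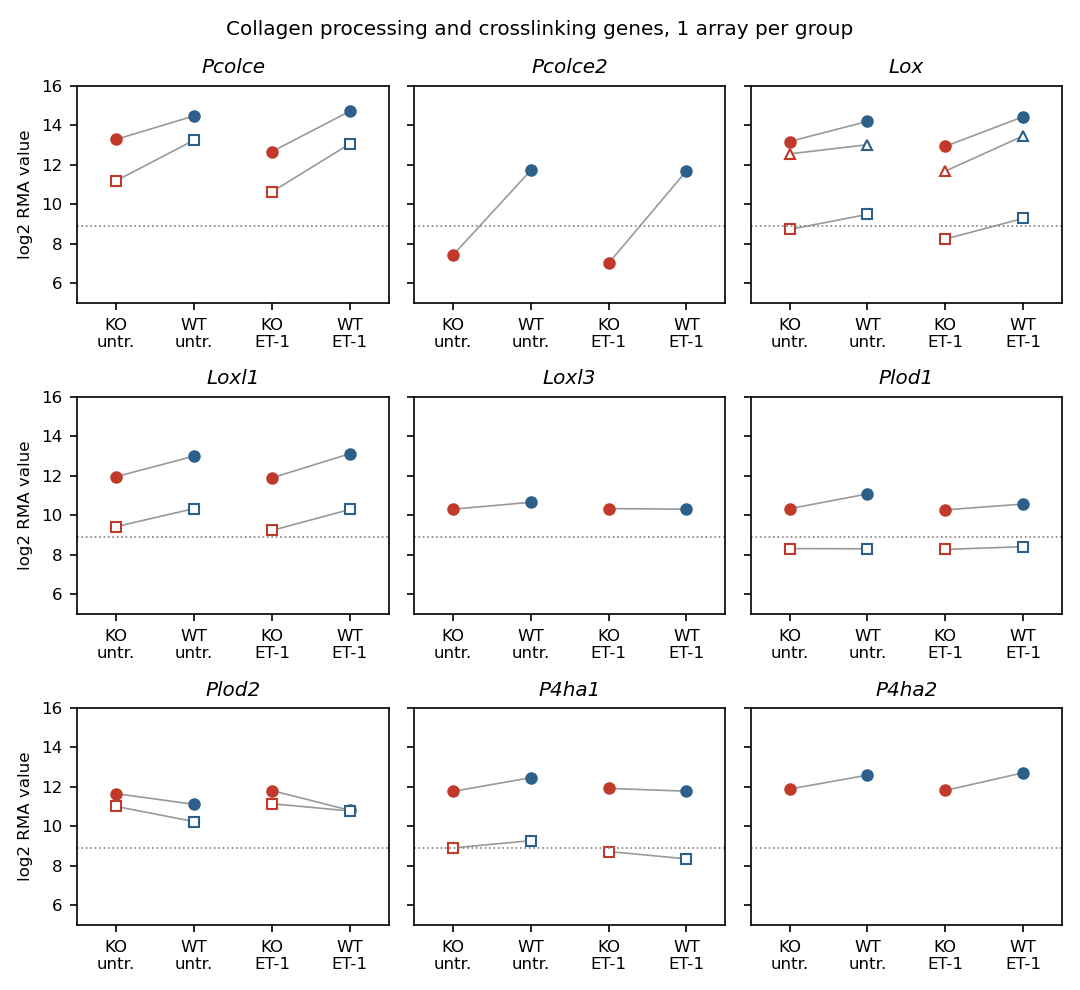
Log2 expression values of every member probe set (vertical axis) in the 4 arrays, 1 panel per gene, with knockout arrays in red and wild-type arrays in blue. Filled points are the brightest probe set of a gene, open points are others, and the dotted line is the filter at log2 8.90. Pcolce2 lay at 7.42 and 7.02 in the knockout arrays, against 11.72 and 11.69 in the wild-type arrays.

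Pcolce2, which encodes procollagen C-endopeptidase enhancer 2, had the largest difference among the members. Its log2 value was 7.42 in untreated knockout cells and 11.72 in untreated wild-type cells, and 7.02 in ET-1-treated knockout cells and 11.69 in ET-1-treated wild-type cells. Both wild-type arrays lay within 0.03 of each other, and both knockout arrays were below the filter. Pcolce2 therefore passed the filter only through the wild-type arrays. The difference was -4.29 untreated and -4.68 after ET-1. Averaged over treatments, Pcolce2 fell by 4.49 ± 0.13 (SE, adjusted p = 0.00556 by limma), and with no filter on dim genes the adjusted p was 0.00813 by limma. The size of these differences, and the folds of 19.6-fold and 25.6-fold lower, are uncertain because the knockout values are dim.

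Pcolce encodes the enhancer PCPE-1, a related secreted protein. Its brightest probe set, 1437165_a_at, read 13.30 in untreated knockout cells and 14.48 in untreated wild-type cells, and 12.67 in knockout and 14.72 in wild-type cells after ET-1. The second probe set, 1448433_a_at, read 11.20 in untreated knockout and 13.25 in untreated wild-type cells, and 10.63 in knockout and 13.07 in wild-type cells after ET-1. On both probe sets each knockout array was below each wild-type array, and the lowest value was that of the ET-1-treated knockout. The differences were -1.19 untreated and -2.05 after ET-1 on the brightest probe set, and -2.05 and -2.43 on the other. Pcolce fell by 1.62 ± 0.24 (adjusted p = 0.0282 by limma) on the brightest probe set and differed by -2.24 ± 0.19 (adjusted p = 0.0226 by limma over probe sets) on the other. The wild-type values of the brightest probe set lay close to the array maxima of 15.21 to 15.24.

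**Figure D2:**
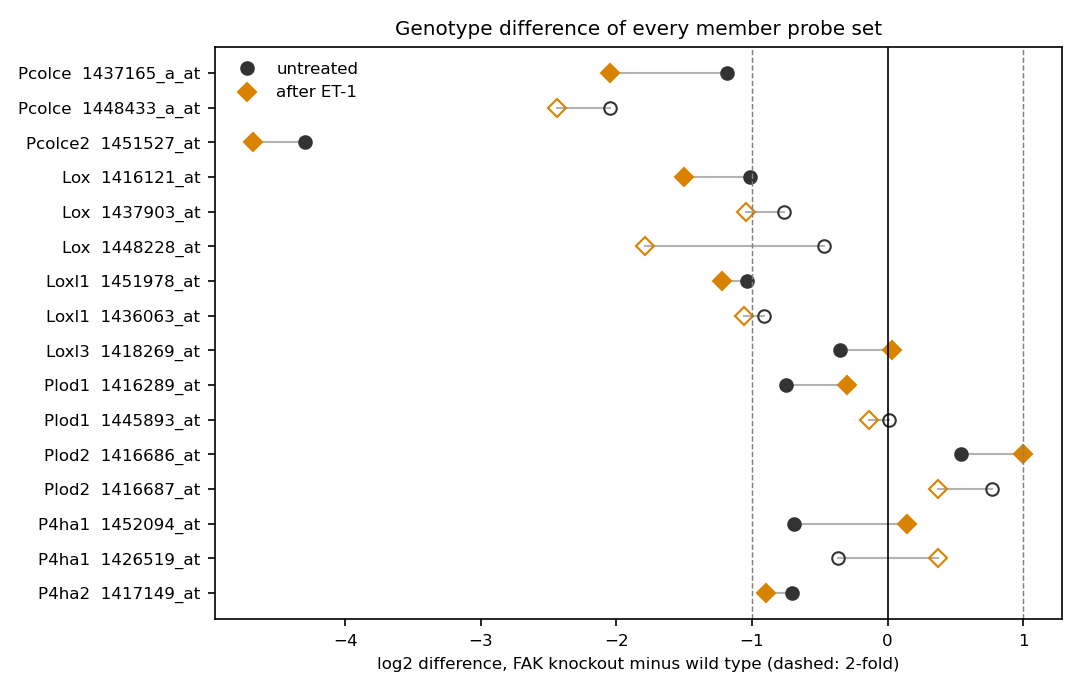
Log2 difference between knockout and wild type (horizontal axis) for each of the 16 member probe sets, in untreated cells (circles) and after ET-1 (diamonds). Filled symbols are the brightest probe set of a gene and dashed lines mark 2-fold. Both probe sets of Pcolce and the probe set of Pcolce2 lay beyond 2-fold lower in both states, while both of Plod2 lay above 0.

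Lox encodes lysyl oxidase, the founding member of the crosslinking family. Its brightest probe set, 1416121_at, read 13.19 in untreated knockout and 14.20 in untreated wild-type cells, and 12.94 in knockout and 14.44 in wild-type cells after ET-1. The probe set 1448228_at read 12.56 in untreated knockout and 13.03 in untreated wild-type cells, and 11.68 in knockout and 13.47 in wild-type cells after ET-1. The dimmest, 1437903_at, read 8.73 in untreated knockout and 9.49 in untreated wild-type cells, and 8.24 in knockout and 9.29 in wild-type cells after ET-1. All 3 were lower in both knockout arrays than in both wild-type arrays, but the untreated difference ranged from -1.02 to -0.47 and the difference after ET-1 from -1.79 to -1.05. Lox fell by 1.26 ± 0.17 on the brightest probe set (adjusted p = 0.0216 by limma). Over probe sets, 1437903_at passed (-0.91 ± 0.14, adjusted p = 0.0485 by limma), and 1448228_at did not (-1.13 ± 0.38, adjusted p = 0.177). The knockout values of 1437903_at were both below the filter, so this probe set was tested only through its wild-type values.

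Loxl1 encodes a lysyl oxidase known for its part in elastic fibre formation. Its brightest probe set, 1451978_at, read 11.96 in untreated knockout and 13.00 in untreated wild-type cells, and 11.90 in knockout and 13.12 in wild-type cells after ET-1. Its other probe set, 1436063_at, read 9.43 in untreated knockout and 10.34 in untreated wild-type cells, and 9.24 in knockout and 10.30 in wild-type cells after ET-1. The genotypes did not overlap on either, and the 4 differences lay between -1.22 and -0.91. Loxl1 fell by 1.13 ± 0.17 (adjusted p = 0.0275 by limma) and its other probe set differed by -0.99 ± 0.11 (adjusted p = 0.0293 by limma over probe sets).

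Loxl3, a lysyl oxidase with scavenger receptor domains, was measured by 1 probe set, which read 10.31 in untreated knockout and 10.66 in untreated wild-type cells, and 10.35 in knockout and 10.31 in wild-type cells after ET-1. The groups overlapped, and the averaged difference was -0.16 ± 0.14 (adjusted p = 0.548 by limma). Loxl4, a further lysyl oxidase that is not on the list, fell by 1.26 ± 0.12 (adjusted p = 0.0118 by limma). Its brightest probe set differed by -1.42 untreated and -1.10 after ET-1, against -0.99 and -0.76 averaged over its probe sets.

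The differences of the lysyl hydroxylases Plod2 and Plod1 had opposite signs, and neither passed the test. Plod2 encodes the hydroxylase of the collagen telopeptides, the ends of the chains where crosslinks form. Its brightest probe set, 1416686_at, read 11.66 in untreated knockout and 11.12 in untreated wild-type cells, and 11.82 in knockout and 10.82 in wild-type cells after ET-1. Its other probe set, 1416687_at, read 11.01 in untreated knockout and 10.24 in untreated wild-type cells, and 11.15 in knockout and 10.78 in wild-type cells after ET-1. On both, each knockout array was above each wild-type array, and the averaged difference was 0.77 ± 0.19 on the brightest probe set (adjusted p = 0.0797 by limma). The difference after ET-1, 1.0014 on the brightest probe set, is the 1 that was counted as 2-fold higher, and it was 0.37 on the other.

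Plod1 encodes the hydroxylase that acts on lysines within the triple helix. Its brightest probe set read 10.34 in untreated knockout and 11.09 in untreated wild-type cells, and 10.28 in knockout and 10.57 in wild-type cells after ET-1. The averaged difference was -0.52 ± 0.16 (adjusted p = 0.125 by limma). Its other probe set stayed below the filter, between 8.27 and 8.41 in all arrays, and differed by 0.01 untreated and -0.14 after ET-1. Plod3, the third gene of that family and no member of the list, differed by -0.80 ± 0.16 (adjusted p = 0.0541 by limma).

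Of the alpha subunits of prolyl 4-hydroxylase, P4ha2 was lower in both knockout arrays. It read 11.89 in untreated knockout and 12.60 in untreated wild-type cells, and 11.82 in knockout and 12.72 in wild-type cells after ET-1. Its averaged difference was -0.80 ± 0.17 (adjusted p = 0.0603 by limma). P4ha1, the subunit most cells use, read 11.77 in untreated knockout and 12.47 in untreated wild-type cells on its brightest probe set, and 11.92 in knockout and 11.78 in wild-type cells after ET-1. Its genotype difference was -0.69 untreated and 0.14 after ET-1, and its other probe set gave -0.37 and 0.37. The averaged difference of P4ha1 was -0.28 ± 0.26 (adjusted p = 0.571 by limma). P4hb, the disulfide isomerase that completes the enzyme, differed by 0.20 ± 0.08 (adjusted p = 0.194 by limma).

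**Figure D3:**
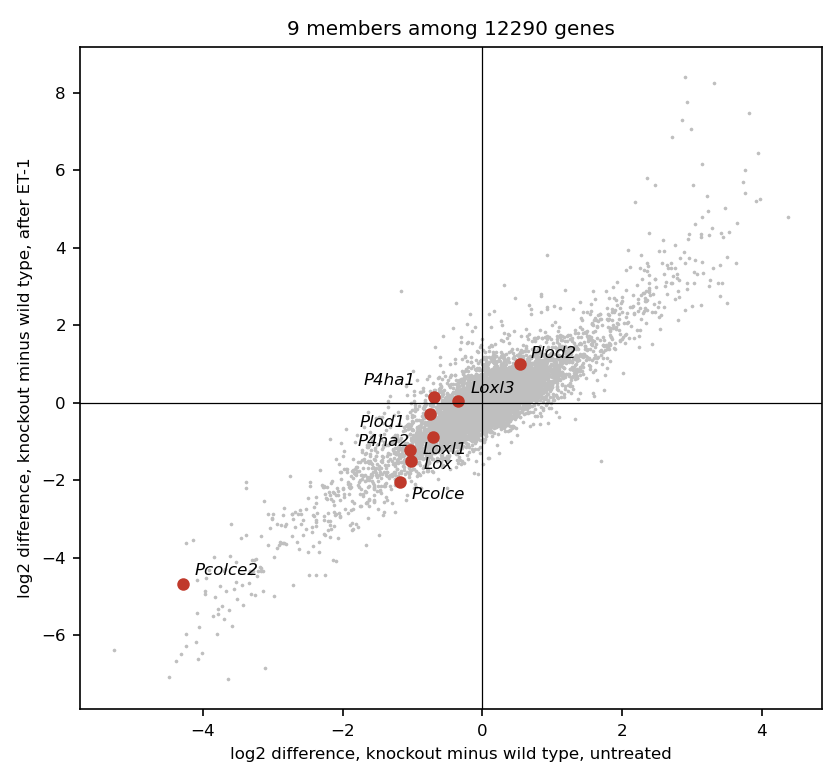
Log2 difference between knockout and wild type in untreated cells (horizontal axis) against that after ET-1 (vertical axis) for 12290 genes (grey) and the 9 members (red, named). Pcolce2 lies among the genes with the lowest values on both axes, at -4.29 and -4.68, and Plod2 is the member with positive values on both.

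By the distance between 4-array profiles, each centred on its own mean, the genes most like the members at 2-fold or more in both states were as follows. Nearest to Pcolce2 were Hoxd10 (distance 0.18 on the log2 scale), Mfap3l (0.32) and Fancf (0.33). Nearest to Pcolce were Myc (0.11), Gmds (0.12) and Agpat2 (0.16). Nearest to Lox were Tspo (0.03), Kitl (0.05) and Nudt4 (0.06), and nearest to Loxl1 were Fancl (0.06), Fam171b (0.06) and Angpt2 (0.08). With 4 arrays such likeness is a description of these arrays only.

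Of 29 further collagen biosynthesis genes listed, 20 were tested, and 2 fell and 2 rose in the knockout by limma. These shares are close to those over all genes (7.05% fell and 6.6% rose). Their median log2 difference was -0.08 untreated and -0.40 after ET-1. Besides Loxl4, the prolyl 3-hydroxylase P3h3 fell by 0.72 ± 0.10 (adjusted p = 0.0248 by limma). P3h3 was dim and passed the filter only through the ET-1-treated wild-type array, where it read 8.93. Fkbp7, an FK506-binding protein of the endoplasmic reticulum, rose by 1.46 ± 0.18 (adjusted p = 0.0195 by limma) on its brightest probe set. Averaged over its probe sets, Fkbp7 differed by 0.94 untreated and 0.53 after ET-1, against 1.70 and 1.22 on the brightest. P3h4, a non-enzymatic relative of the prolyl 3-hydroxylases, rose by 0.73 ± 0.14 (adjusted p = 0.0473). Bmp1, the protease that the procollagen enhancers assist, differed by -0.64 ± 0.16 (adjusted p = 0.0798 by limma). Serpinh1, the collagen chaperone HSP47, differed by 0.30 ± 0.18 (adjusted p = 0.356 by limma). Averaged over probe sets, Bmp1 differed by -0.25 untreated and -0.35 after ET-1, against -0.57 and -0.72 on its brightest. For Serpinh1 these were 0.03 and 1.07, against 0.02 and 0.57.

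**Figure D4:**
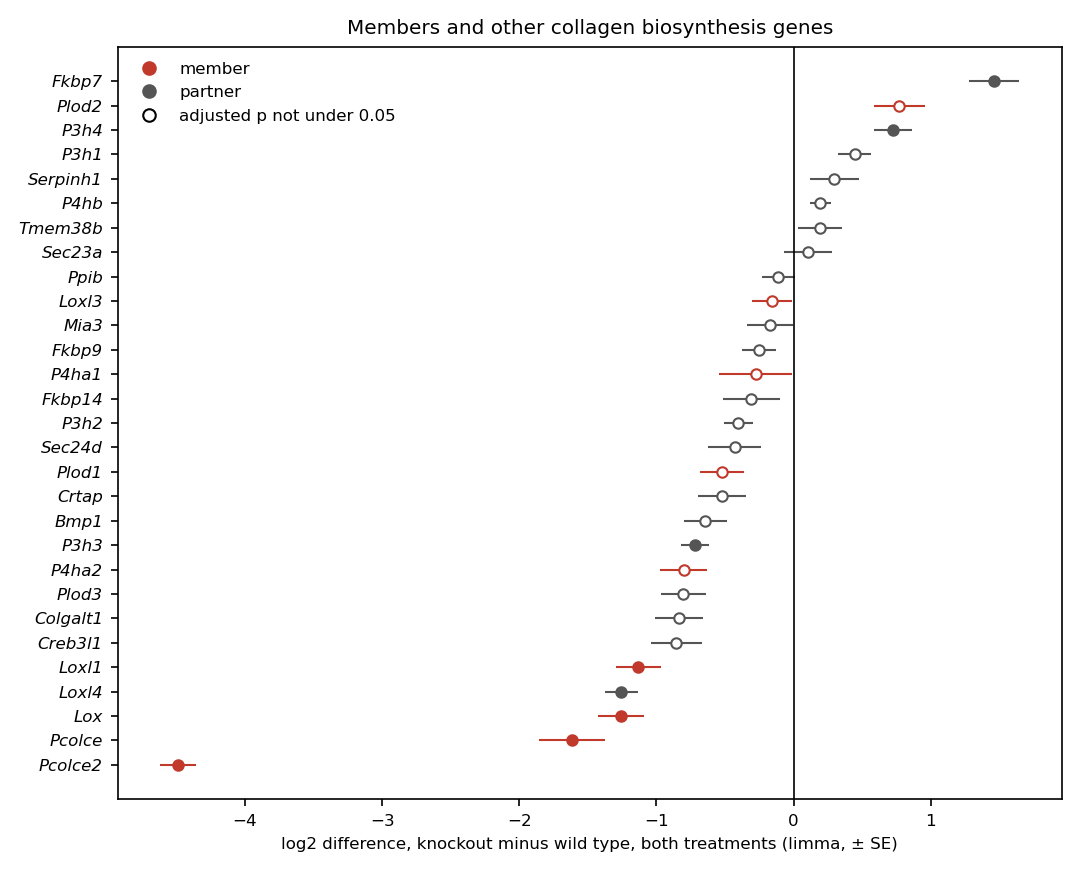
Log2 difference between knockout and wild type averaged over treatments (horizontal axis, limma estimate ± SE from 4 arrays) for the 9 members (red) and the 20 other collagen biosynthesis genes tested (grey). Filled points have an adjusted p under 0.05. Pcolce2 lies lowest at -4.49, and Fkbp7 highest at 1.46.

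Among 12 tested matrix genes that these enzymes act on or work with, 4 fell and 1 rose by limma (all genes: 7.05% fell and 6.6% rose), so the share that rose is close to that over all genes. The chains of collagen I both fell. Col1a1 fell by 1.96 ± 0.25 (adjusted p = 0.0205 by limma) and Col1a2 fell by 1.11 ± 0.14 (adjusted p = 0.0191). Col11a1, a minor fibrillar chain, fell by 2.56 ± 0.37 (adjusted p = 0.0261 by limma). Periostin (Postn), a matrix protein that binds BMP-1, fell by 4.98 ± 0.95 (adjusted p = 0.0478 by limma). Postn differed by -3.11 untreated and -6.85 after ET-1. The size of the latter is uncertain because Postn read 7.70, below the filter, in the ET-1-treated knockout. Col11a1 passed the filter through its wild-type values alone, and the size is uncertain because its knockout values were dim (7.92 untreated, 7.42 after ET-1). Col5a2, a chain of collagen V, rose by 2.87 ± 0.34 (adjusted p = 0.0171). Elastin (Eln), the other main substrate of lysyl oxidases, differed by 1.77 ± 0.38 (adjusted p = 0.0634 by limma). Its brightest probe set differed by 1.03 untreated and 2.50 after ET-1, against 0.60 and 1.41 averaged over its probe sets.

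P4ha1, P4ha2, Plod2 and Lox are known targets of the hypoxia-inducible factor in other cells, so other such targets were listed. Of 19 tested, 4 fell and 2 rose by limma, where 7.05% of all genes fell and 6.6% rose. The median difference was -0.12 untreated and -0.13 after ET-1, and over all genes 0.02 and -0.03. Bnip3, a mitophagy receptor, fell by 2.00 ± 0.15 (adjusted p = 0.00764 by limma) and the peptide hormone gene Adm fell by 2.13 ± 0.26 (adjusted p = 0.0181). The glucose transporter Slc2a1 fell by 1.16 ± 0.17 (adjusted p = 0.0276) and Ndrg1 fell by 0.85 ± 0.14 (adjusted p = 0.0372). Car9, a carbonic anhydrase, rose by 2.51 ± 0.10 (adjusted p = 0.00556 by limma) and the glycolytic regulator Pfkfb3 by 0.93 ± 0.12 (adjusted p = 0.0197). Car9 passed the filter through its knockout values alone, and the size is uncertain because its wild-type values were dim (8.83 untreated, 8.53 after ET-1). Averaged over its probe sets, Pfkfb3 differed by 0.43 untreated and 0.46 after ET-1, against 0.78 and 1.08 on its brightest.

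The study also asked how fibroblasts differ after ET-1 with and without FAK. No member reached 2-fold after ET-1 on its brightest probe set in either genotype. That is 0 of 9 in the knockout, where 0.236% of all genes were at least 2-fold higher and 0.277% lower, and 0 of 9 in wild type, where 0.781% were higher and 1.17% lower. Averaged over genotypes, limma called 0 members and 0% of all 12290 genes, with 0 members and 643 genes (5.23%) at an unadjusted p under 0.05. The members' median ET-1 difference was -0.07 in the knockout and -0.03 in wild type.

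In the knockout the procollagen enhancers and Lox had the lowest ET-1 differences on their brightest probe sets. Pcolce read 12.67 in ET-1-treated and 13.30 in untreated knockout cells, a difference of -0.62, and its other probe set gave -0.57. Pcolce2 differed by -0.41, with both values below the filter. The 3 probe sets of Lox differed by -0.25, -0.49 and -0.88. The other members lay between -0.07 and 0.16 on their brightest probe sets.

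In wild type P4ha1 had the lowest ET-1 difference. It read 11.78 in ET-1-treated and 12.47 in untreated wild-type cells, a difference of -0.68, and its other probe set gave -0.92 with 8.35 in ET-1-treated and 9.28 in untreated cells. Plod1 differed by -0.51, Loxl3 by -0.35 and Plod2 by -0.30, although the second probe set of Plod2 gave 0.54. Lox (0.24), Pcolce (0.24), Loxl1 (0.12) and P4ha2 (0.12) were higher after ET-1 on their brightest probe sets, and Pcolce2 differed by -0.03. All of these wild-type values rest on the array that stood apart, and the part of its 3′ to 5′ difference in them was not tested.

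The knockout ET-1 difference minus the wild-type ET-1 difference was lowest for Pcolce (-0.86) and highest for P4ha1 (0.83) on the brightest probe sets. By this measure 0 of 9 members reached 2-fold (all genes: 1.59% higher, 1.31% lower). The Lox probe set 1448228_at reached -1.32, against -0.49 and -0.28 on the other Lox probe sets. This difference uses all 4 arrays and has no test.

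**Figure D5:**
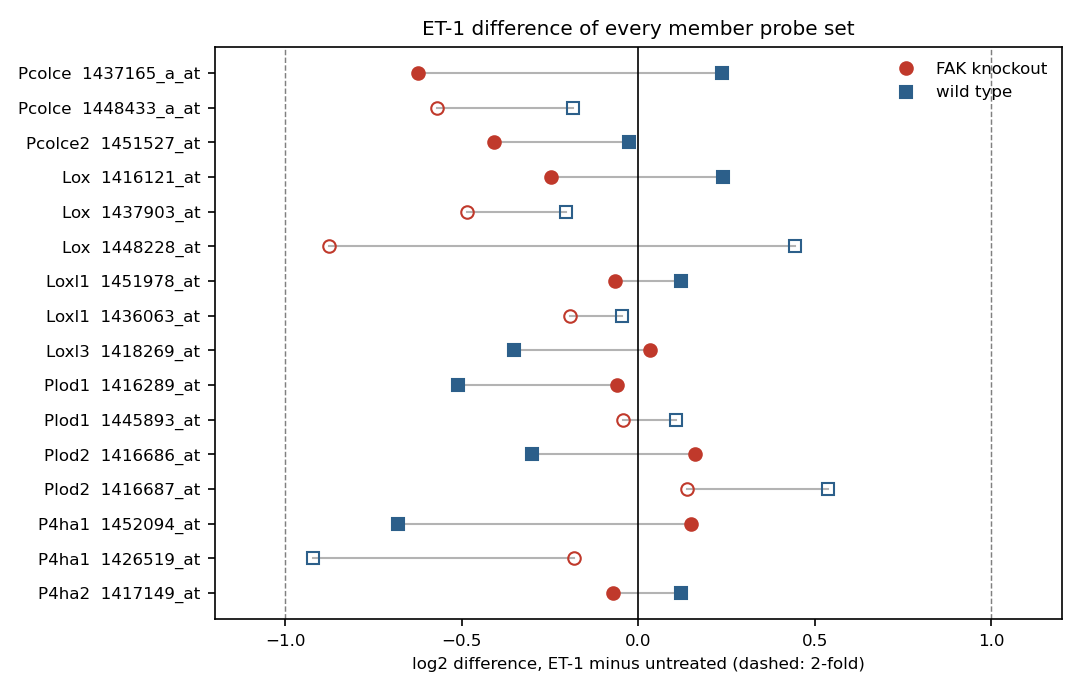
Log2 difference between ET-1-treated and untreated cells (horizontal axis) for each of the 16 member probe sets in knockout (red circles) and wild-type cells (blue squares). Filled symbols are the brightest probe set of a gene and dashed lines mark 2-fold. All points lie inside 2-fold, from -0.92 to 0.54 in wild type and from -0.88 to 0.16 in the knockout.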

How the data were processed

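Log2 expression values per probe set had been summarised with RMA by the authors, per the submitters' processing notes (its version is not given in the sources used here), after 2-cycle biotin labelling of 100 ng total RNA, per the labels' protocols. RMA equalises the distributions of arrays, and labelling from the 3′ end can lose 5′ signal. The deposited table held 45101 probe sets, of which the platform annotation paired 34958 with 1 gene, 932 with several and 9211 with none listed. Values were used as deposited, with no pseudocount. The brightest probe set by mean over 4 arrays represented each gene, and the filter was applied to the highest value.

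The additive fit used limma 3.58.1 in R 4.3.3, with moderated variances that follow the mean level. It had a prior of 2.996 degrees of freedom and a threshold of 0.05. The same fit was run on simulated data with genotype differences but no built-in interaction and no array that stood apart. That run therefore does not show how the fit does on these arrays. Other steps used Python 3.11.15, numpy 2.4.6, pandas 2.3.3 and matplotlib 3.10.9. The number of arrays limits the precision. Alternatives were other filters, normalisations, probe set summaries, eBayes settings and 1.5-fold. Named list genes are those that passed limma for genotype, plus a few enzymes and substrates next to members (Plod3, P4hb, Bmp1, Serpinh1 and Eln) that were chosen after their values were seen, as were Thy1, Prrx1, Dcn and Col3a1. Likeness used the 3 nearest genes outside the list with predicted and clone names passed over. The members and lists were chosen with earlier results of these data known.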

Additional observations from a re-analysis of the deposited data

Results flagged for a closer look

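With 1 array per group, 10 of the 16 member probe sets had ET-1 differences of opposite sign in the 2 genotypes, or genotype differences of opposite sign in untreated and ET-1-treated cells. This opposition was not tested, and most of the values are small. The share of all probe sets that meet either rule was not counted, so 10 of 16 cannot be read as particular to the members. The value given for each is the knockout ET-1 difference minus the wild-type ET-1 difference on the log2 scale. For Lox it was -0.49 on 1416121_at and -1.32 on 1448228_at, for Pcolce -0.86 on 1437165_a_at, for Loxl1 -0.19 on 1451978_at and for P4ha2 -0.19, and on each of these the knockout was lower and wild type higher after ET-1. For Plod1 it was -0.15 on the dim probe set 1445893_at. Loxl3 stood at 0.39 and Plod2 at 0.46 on 1416686_at, with the knockout higher and wild type lower after ET-1. P4ha1 stood at 0.83 on 1452094_at and 0.74 on 1426519_at, where the knockout was below wild type untreated and above it after ET-1. The ET-1-treated wild-type array enters every one of these values.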

How the results depend on the processing

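The 4 members that fell by limma were called under all 8 other settings, apart from Lox with the second brightest probe set (-1.13, adjusted p = 0.174 by limma). Lox had adjusted p-values of 0.0040 to 0.174 over them. P4ha2 passed under 6 of 8 (adjusted p 0.0288 to 0.0837) and Plod2 under 3 of 8 (0.0297 to 0.149). P4ha1 turned to 0.0015 with the second brightest probe set. Over probe sets, 2 member probe sets passed with no filter (all probe sets tested: 3.45%) and 4 without the intensity trend (7.45%). These stand in place of 7 (8.45%). Members at 2-fold in untreated cells numbered 2 with the mean of all probe sets, 2 with the second brightest and 7 at 1.5-fold (20% of all genes), in place of 4. At 1.5-fold, 1 member differed after ET-1 in wild type (10.7% of all genes) and 1 in the knockout (2.33%), in place of 0. By the difference of ET-1 differences 2 did (12.4%), in place of 0. With the second brightest probe set 1 member reached 2-fold by that last measure (4.07%). The other 49 of 58 member counts stayed within 1.5 times. Many of these were counts of 0 that stayed 0, such as those for ET-1 by limma, where 0 of all genes were called. A count of 4 that became 6 or 3 is also within that limit. Without the ET-1-treated wild-type array, an alternative chosen after seeing the data, the fit leaves no test. The genotype difference is then the untreated one, so its 4 members at 2-fold lower (4.59% of all genes) repeat the count given above. That repeat is among the 49 and is no separate check. Over all genes, limma called 918 with the second brightest probe set, in place of 1677, and 2917 probe sets with array medians subtracted, in place of 1769. No paired analysis was possible because each group has 1 array and the labels give no replicate numbers.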

Other observations

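The summed log2 level of 5 endothelial markers was 10.93 and 10.95 in untreated and ET-1-treated knockout cells, against 11.09 and 11.10 in wild-type cells, and 1 of the 5 passed the filter. That of 5 macrophage markers was 11.95 and 11.76 in the knockout, against 11.45 and 11.34 in wild type, with Csf1r higher and Cd14 lower in the knockout by limma. Cd14 passed the filter through its wild-type values alone. Of the skeletal muscle and the cartilage and bone markers tested, 2 and 3 genes, 0 passed limma for genotype, where 7.05% of all genes fell and 6.6% rose.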
